A study of Saccharomyces cerevisiae with 13 samples.

Results

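The mitochondrial ribosomal protein genes of budding yeast were followed through a 30 min exposure to rapamycin, to 5 small molecules that enhance its action, and to a combination. The genes were taken by name, as those whose symbol in the array's gene table begins with MRPL, MRPS, MRP, RSM, IMG or YML and ends in a number. This rule found 69 of the 5449 genes measured, each with a probe set of its own, and used no measured value. Of the 69 proteins, 40 belong to the large subunit and 27 to the small subunit. The other 2 carry a name of the family without being subunits: MRP8 encodes a protein of unknown function that is absent from known structures of this ribosome, and RSM22 encodes a methyltransferase-like protein that assists its assembly.

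The mitochondrial ribosome translates the few messages of the mitochondrial genome, nearly all of which encode core subunits of the respiratory chain and the ATP synthase. Its RNA and the VAR1 protein are made inside the organelle, whereas the proteins described here are encoded in the nucleus, translated in the cytosol and imported. Many descend from bacterial ribosomal proteins and others joined the ribosome in the mitochondrial lineage, and in yeast their transcripts are known to be regulated by the carbon source and to be bound by the RNA-binding protein Puf3. Rapamycin inhibits TOR complex 1, the kinase complex that couples growth to nutrient supply and that drives synthesis of the cytosolic ribosome.

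The strain was BY4741, a haploid MATa laboratory strain, grown in rich YPD medium to the middle of exponential growth before treatment. All 13 arrays come from this strain, which carries auxotrophic alleles of HIS3, LEU2, MET17 and URA3. The groups were 2 arrays of SMER1 at 20 µM together with 100 nM rapamycin, 2 arrays of SMER1 at 20 µM alone, 2 arrays of 100 nM rapamycin alone, SMER3, SMER2, SMER4 and SMER5 at 20 µM (1 array each), and the solvent DMSO (3 arrays). SMER stands for small molecule enhancer of rapamycin, and the compounds are known here only by these code names. The study set the SMER profiles against the solvent and against rapamycin to find expression signatures of the SMERs.

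The values were log2 signals of single-colour Affymetrix arrays, and ± gives the standard error of a log2 difference. A gene was said to rise or fall when its limma p, adjusted by the Benjamini-Hochberg method over all 5449 genes, was under 0.05. The labels number the replicates without naming separate cultures, so p-values measure only the spread between these samples, which may be technical. Whole cultures were measured, so fewer cells making a message and less of the message per cell cannot be told apart. Every comparison with DMSO uses the same 3 DMSO arrays. The a-cell genes MFA1, MFA2, STE2, BAR1 and STE6 lay between 11.5 and 13.9 on all arrays. The alpha-cell genes MF(ALPHA)1, MF(ALPHA)2 and STE3 lay between 2.74 and 8.49. URA3 was at 1.97 to 4.55, MET17 at 4.05 to 5.78 and LEU2 at 6.29 to 8.61. HIS3 was at 12.1 to 13.2, and as it was not known whether its probe set lies in the part missing from this strain's allele, it checks nothing.

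The mitoribosomal genes moved as a block with SMER1, with and without rapamycin. Under rapamycin alone they moved less, and their median difference of 0.21 was close to that of all genes, 0.16. Under SMER3 they and all genes both split in direction, with interquartile ranges of −0.27 to 0.08 and −0.25 to 0.34. The median of the 69 genes, as a difference from the mean of the DMSO arrays, was 0.36 and 0.41 on the SMER1 plus rapamycin arrays. It was 0.41 and 0.41 on the SMER1 arrays and 0.20 and 0.26 on the rapamycin arrays. The lone arrays gave medians of −0.10 for SMER3, −0.07 for SMER2, −0.04 for SMER4 and −0.04 for SMER5, against 0.00, −0.01 and 0.00 on the DMSO arrays. By this median all 6 arrays with SMER1, rapamycin or both lay above the other 7. Relative to the median of all genes on the same array, it was 0.26 and 0.32 with the combination. It was 0.30 and 0.335 with SMER1 but 0.02 and 0.12 with rapamycin. By that measure rapamycin replicate 1 lay below DMSO replicate 3, which was at 0.05. Replicates were close, with a median SD over the 69 genes of 0.045 for SMER1 plus rapamycin, 0.073 for SMER1, 0.048 for rapamycin and 0.056 for DMSO.

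**Figure D1:**
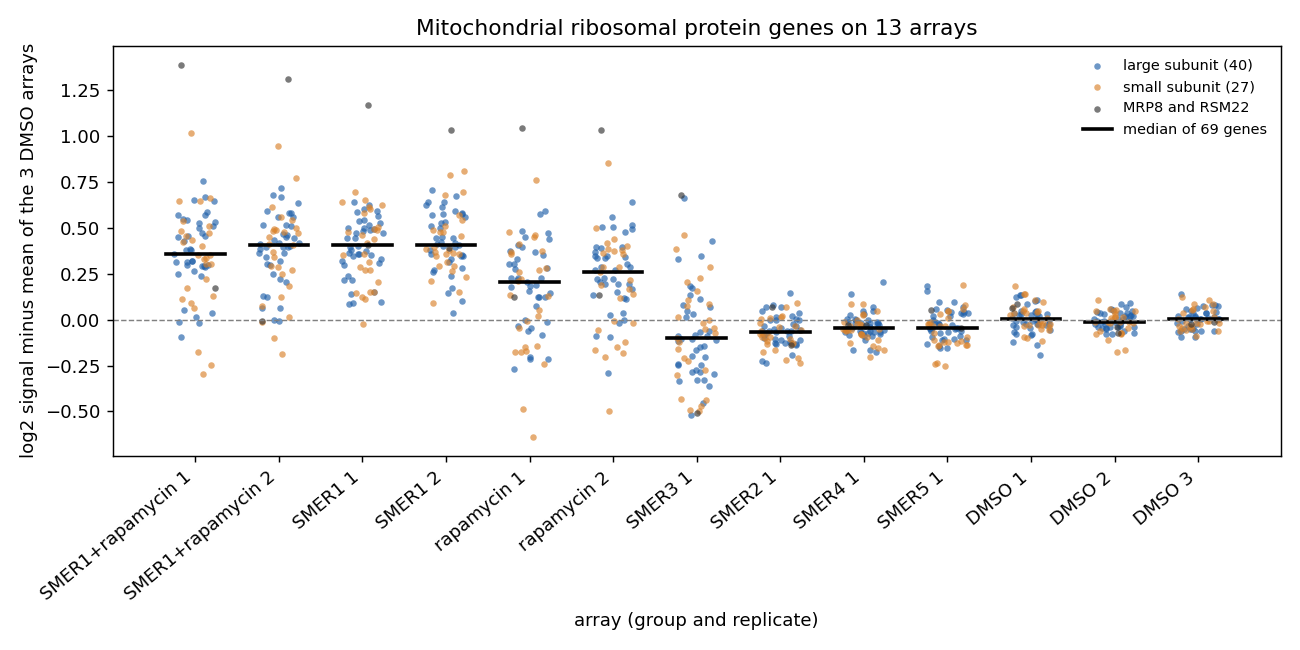
Each point is 1 of the 69 genes on 1 array, as its log2 signal minus the mean of the 3 DMSO arrays, and the black bar is the median of the 69 genes. The bars sit at 0.36 to 0.41 on the 4 arrays with SMER1, at 0.20 and 0.26 with rapamycin alone, and between −0.10 and 0.00 on the other arrays.

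SMER1 raised 58 of the 69 genes against DMSO and lowered 0, while 36.5% of all genes rose and 25% fell (n = 2 and 3 arrays). The median difference was 0.42, against 0.09 over all genes, and all 69 differences were above 0. The rises were modest, between 0.26 and 0.73 on the log2 scale for the 56 ribosomal proteins among them, which is 1.20-fold to 1.66-fold. Leaving out single arrays gave 49 to 58 genes. Large subunit genes rose in 34 of 40 cases (median 0.45) and small subunit genes in 22 of 27 (median 0.42).

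MRPS12 encodes uS12m, a small subunit protein that sits at the decoding centre. Its signals were 13.08 and 13.25 with SMER1, against 12.41, 12.45 and 12.45 with DMSO. The lower SMER1 array lay clear of the highest DMSO array, and the difference was 0.73 ± 0.08 (1.66-fold, adjusted p = 0.000137). RSM10, which encodes the small subunit protein uS10m, had signals of 12.56 and 12.70 with SMER1, against 11.88, 11.96 and 11.89 with DMSO. It rose by 0.72 ± 0.07. Among large subunit genes the highest rise was that of MRPL8, whose protein bL17m lies near the exit of the peptide tunnel. MRPL8 had signals of 12.21 and 12.24 with SMER1, against 11.62, 11.52 and 11.57 with DMSO, a difference of 0.66 ± 0.06 (adjusted p = 6.83e-05). MRPL38 (the large subunit protein uL14m) rose by 0.65 ± 0.07, RSM18 (bS18m, small subunit) by 0.65 ± 0.06, RSM28 (mS46, a small subunit protein linked by yeast genetics to translation initiation) by 0.64 ± 0.07 and RSM19 (uS19m, small subunit) by 0.63 ± 0.07.

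The 11 genes not called with SMER1 had differences between 0.07 and 0.29. They were MRPL15, MRPL17, MRPL20, MRPL35, MRPL37 and YML6 of the large subunit and MRP4, MRP13, MRPS16, MRPS17 and RSM26 of the small subunit, named here after their values were seen. YML6 encodes uL4m, which lines the peptide tunnel, and MRP4 encodes uS2m.

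**Figure D2:**
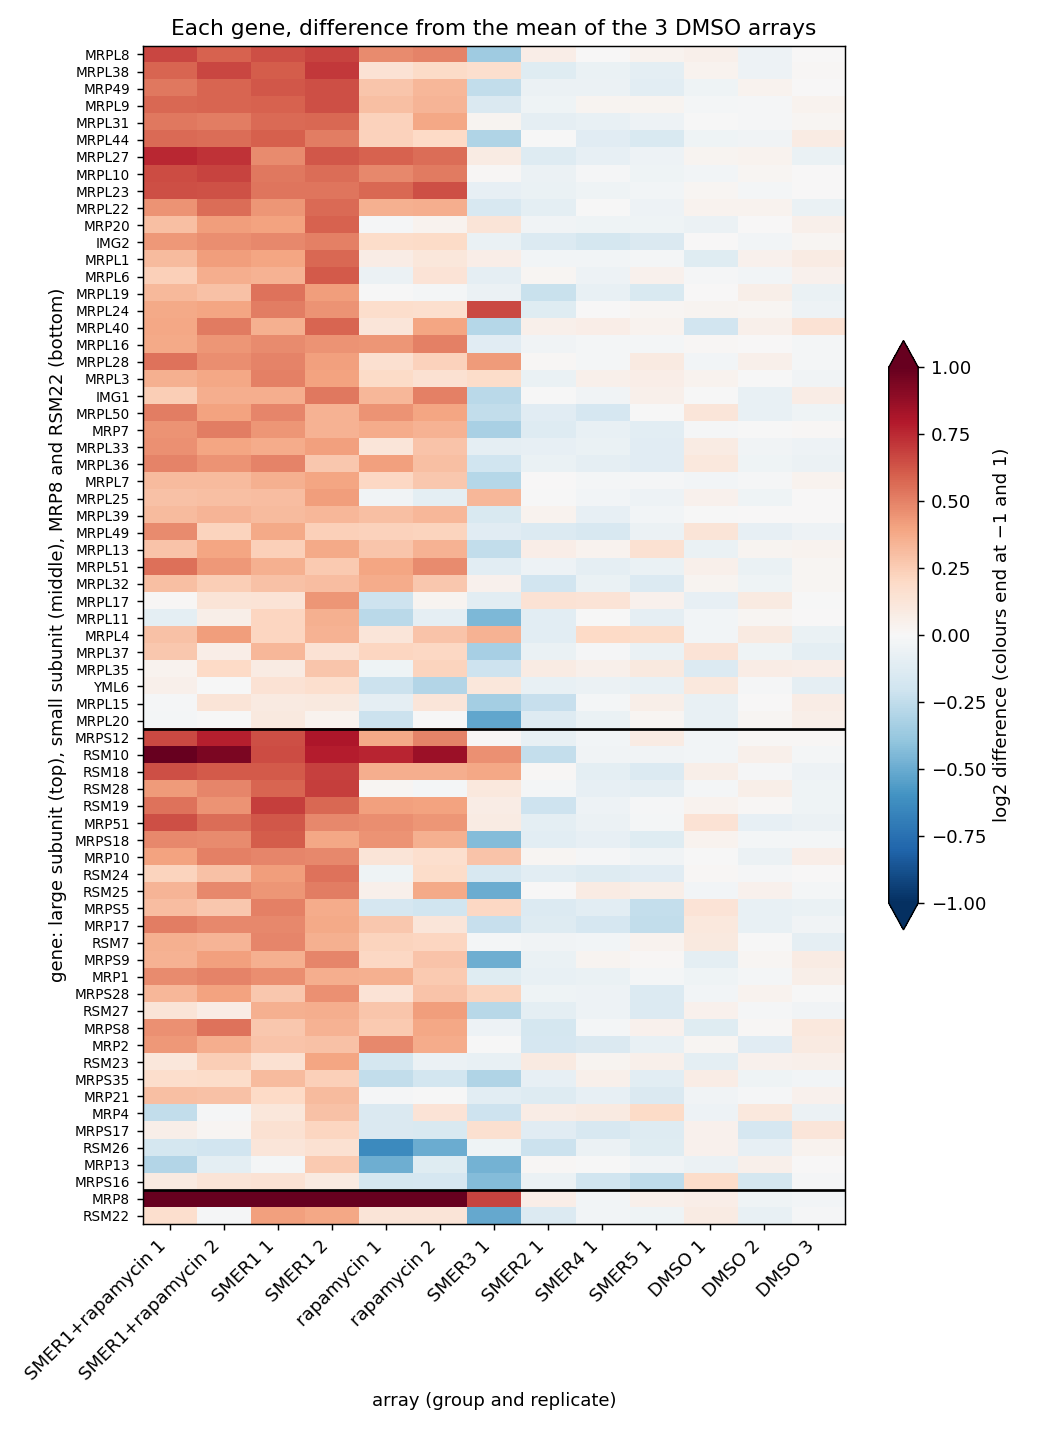
Rows are the 69 genes, with the large subunit above, the small subunit in the middle and MRP8 and RSM22 at the bottom, and columns are the 13 arrays. Colour is the log2 signal minus the mean of the 3 DMSO arrays, red above and blue below, and a few values of MRP8 and RSM10 exceed the end of the scale at 1. The SMER1 columns hold values above the DMSO mean in 68 and 69 of the 69 rows, the rapamycin columns are paler with blue rows such as RSM26, and the SMER3 column holds both colours.

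Rapamycin raised 37 of the 69 genes against DMSO and lowered 3 (n = 2 and 3 arrays). Over all genes 39.7% rose and 20.4% fell. The median difference was 0.21, against 0.16 over all genes. The value of 0.16 depended on scaling and became 0.03 under quantile normalisation, which also gave 31.7% of all genes higher and 27.3% lower. Set against all genes, the mitoribosomal median was higher by 0.05 in the deposited values and by 0.13 in quantile-normalised ones, with 28 genes higher and 4 lower in the second case.

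RSM10 had signals of 12.67 and 12.76 with rapamycin, against 11.88, 11.96 and 11.89 with DMSO, and rose by 0.81 ± 0.07 (1.75-fold, adjusted p = 5.76e-05). MRPL23, which encodes uL13m of the large subunit, had signals of 12.57 and 12.63 with rapamycin, against 12.01, 11.97 and 12.00 with DMSO. Its rise was 0.61 ± 0.06, and the groups did not overlap. Further rises were those of MRPL27 (mL41, a protein particular to mitochondrial ribosomes) by 0.58 ± 0.07, MRPL10 (uL15m) by 0.50 ± 0.06, MRPL8 by 0.48 ± 0.06 and MRPL16 (uL16m) by 0.47 ± 0.06, all of the large subunit. Of large subunit genes 24 of 40 rose and 1 fell, and of small subunit genes 12 of 27 rose and 2 fell. As 39.7% of all genes rose and 20.4% fell, the share of small subunit genes that rose was close to that of all genes.

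RSM26 had the largest of the 3 falls with rapamycin. It encodes mS42, a small subunit protein with the fold of a manganese superoxide dismutase, which pairs in the yeast ribosome with the related protein mS43, encoded by MRP1. RSM26 had signals of 10.94 and 11.08 with rapamycin, against 11.62, 11.50 and 11.61 with DMSO. Both rapamycin arrays lay below every DMSO array, and RSM26 fell by 0.57 ± 0.07 (0.67-fold, adjusted p = 0.000328). With SMER1 its signals were 11.70 and 11.73, a difference of 0.14 ± 0.07 from DMSO (adjusted p = 0.132). With SMER1 plus rapamycin they were 11.40 and 11.39, between those of rapamycin alone and DMSO. MRP1, named here for its partnership with RSM26 and after its values were seen, had signals of 11.93 and 11.83 with rapamycin, against 11.53, 11.55 and 11.63 with DMSO. It rose by 0.31 ± 0.07 with rapamycin (adjusted p = 0.00529), so the messages of these partners differed in direction on the same arrays.

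For the other falls with rapamycin both rapamycin arrays also lay below every DMSO array, but the call was lost when single arrays were left out. YML6 fell by 0.25 ± 0.07 (adjusted p = 0.0206), and without rapamycin replicate 2 the difference was −0.21 (adjusted p = 0.116). MRPS35, which encodes the small subunit protein mS45, fell by 0.21 ± 0.06 (adjusted p = 0.0227). Its difference was −0.18 without DMSO replicate 1 (adjusted p = 0.0541), −0.18 without rapamycin replicate 1 (adjusted p = 0.125) and −0.24 without rapamycin replicate 2 (adjusted p = 0.0556).

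**Figure D3:**
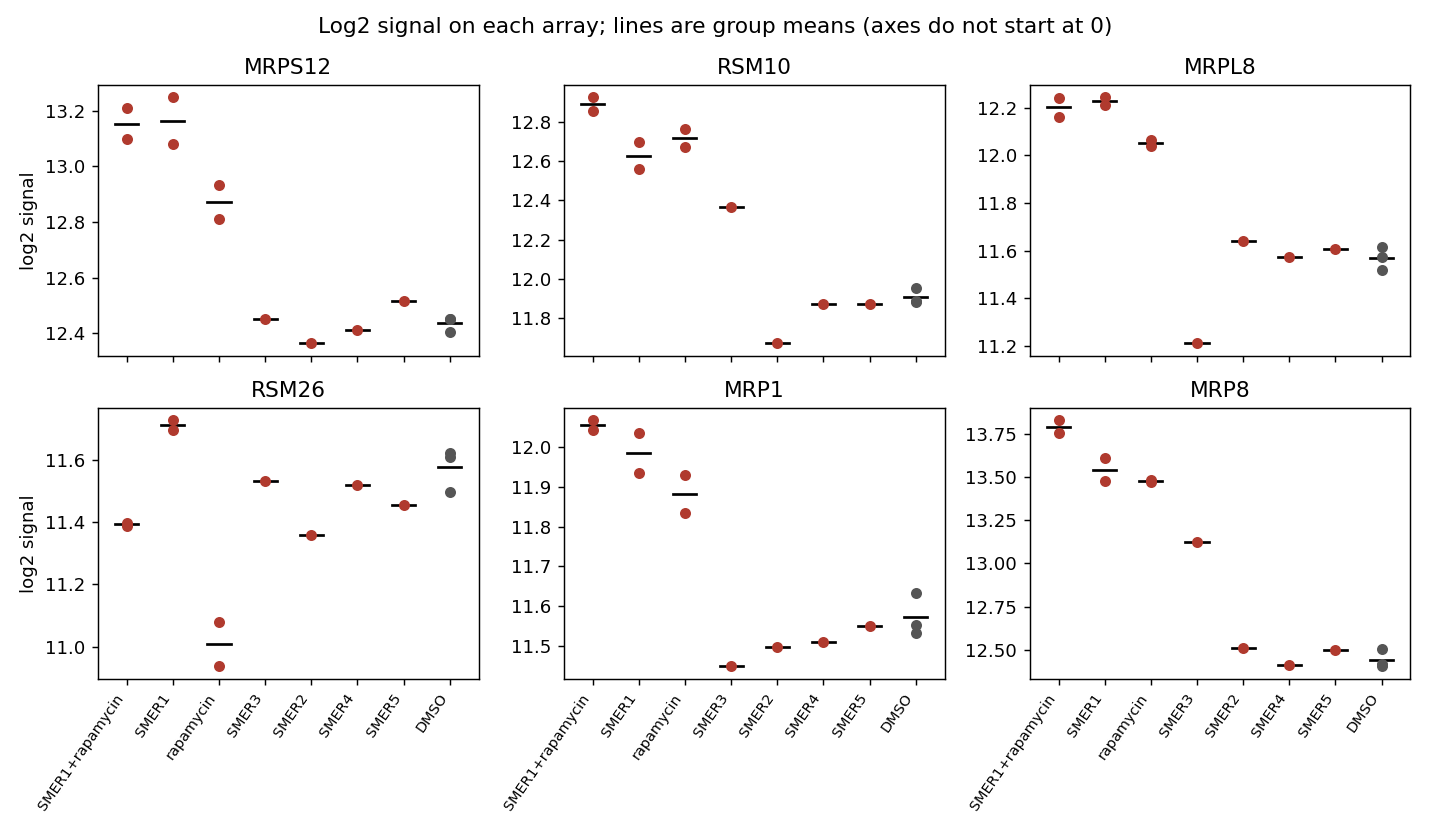
Log2 signals of 6 genes, with a point for each array, a bar for each group mean and axes that do not start at 0. RSM26 is lowest on the 2 rapamycin arrays, at 10.94 and 11.08, while its partner MRP1 is at 11.83 and 11.93 there, above all 3 DMSO arrays, and MRPL8 is lowest on the SMER3 array, at 11.21.

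SMER1 together with rapamycin raised 54 of the 69 genes against DMSO and lowered 1, where 39.6% of all genes rose and 31.2% fell (n = 2 and 3 arrays). The median difference was 0.38, against 0.09 over all genes. RSM10 rose most among the subunits, with signals of 12.92 and 12.85 under the combination, against 11.88, 11.96 and 11.89 with DMSO. Its difference was 0.98 ± 0.07 (1.97-fold, adjusted p = 1.03e-05). MRPL27 rose by 0.74 ± 0.07, MRPS12 by 0.72 ± 0.08, MRPL10 by 0.67 ± 0.06 and MRPL23 by 0.64 ± 0.06. The gene that fell was RSM26, by 0.18 ± 0.07 (adjusted p = 0.0488), a call lost when any of 6 arrays was left out (adjusted p = 0.0704 to 0.166 without DMSO replicate 1 or 3, either SMER1 array or either SMER1 plus rapamycin array).

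Adding SMER1 to rapamycin was compared with rapamycin alone (n = 2 arrays each). Here 23 of the 69 genes were higher with the combination and 1 was lower, whereas over all genes 18.1% were higher and 28.2% lower. The median was 0.17 for the mitoribosomal genes and −0.08 for all genes. The genes that gained most were MRPS5 (uS5m, small subunit) at 0.47 ± 0.09, MRPL38 at 0.46 ± 0.07, RSM28 at 0.46 ± 0.07, MRPS35 at 0.39 ± 0.07 and RSM26 at 0.38 ± 0.08. RSM28 had signals of 11.57 and 11.63 with the combination, against 11.17 and 11.13 with rapamycin alone. RSM27 (mS33, small subunit) was lower by 0.25 ± 0.07 (adjusted p = 0.0274). That call was lost without SMER1 plus rapamycin replicate 1 (adjusted p = 0.0760) or 2 (adjusted p = 0.136) or rapamycin replicate 2 (adjusted p = 0.157). The count of 24 called genes depended on single arrays too. It was 13 without rapamycin replicate 1, 15 without rapamycin replicate 2, 10 without SMER1 plus rapamycin replicate 1 and 11 without SMER1 plus rapamycin replicate 2.

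Adding rapamycin to SMER1 changed little among the mitoribosomal genes. Against SMER1 alone, 0 were higher and 2 lower with the combination, where 4.96% of all genes were higher and 11.7% lower (n = 2 arrays each). The median was −0.04, and the 69 differences lay between −0.33 and 0.26. The 2 lower genes were RSM26 at −0.32 ± 0.08 (adjusted p = 0.0296) and RSM22 at −0.32 ± 0.08 (adjusted p = 0.0416). RSM26 lost its call without SMER1 replicate 1 (adjusted p = 0.107) or 2 (adjusted p = 0.132) or SMER1 plus rapamycin replicate 1 (adjusted p = 0.127) or 2 (adjusted p = 0.145), while its difference stayed near −0.32, between −0.335 and −0.305. RSM22 lost its call without any of 8 arrays, namely DMSO replicate 2 or 3 and each array with SMER1, rapamycin or both (adjusted p = 0.0550 to 0.247). Quantile normalisation gave 2 higher and 2 lower, and median centring 2 higher and 1 lower.

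SMER1 and rapamycin were also set against each other directly (n = 2 arrays each). SMER1 arrays had higher signals of 29 genes and lower signals of 0, while 17.1% of all genes were higher and 19.7% lower. RSM26 differed most, with 11.70 and 11.73 with SMER1 against 10.94 and 11.08 with rapamycin, a difference of 0.70 ± 0.08 (1.63-fold, adjusted p = 0.000519). RSM28 had 11.73 and 11.84 with SMER1, against 11.17 and 11.13 with rapamycin, a difference of 0.64 ± 0.07. MRPS5 had 11.57 and 11.44 with SMER1, against 10.90 and 10.87 with rapamycin, and differed by 0.62 ± 0.09. MRPL19, which encodes uL11m of the large subunit's stalk base, was higher by 0.49 ± 0.07. The count of 29 was 14 without rapamycin replicate 1 and 15 without SMER1 replicate 2.

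The effect of SMER1 in the presence of rapamycin was compared with its effect in the absence of rapamycin by the interaction term of the same fit. It was negative in 21 of the 69 genes and positive in 0. The difference made by SMER1 in these genes was thus lower when rapamycin was present, and for RSM27 it was below 0 there (−0.25). Over all genes 21.3% had a negative and 4.42% a positive term, and the median was −0.26 for the mitoribosomal genes and −0.18 for all genes. After quantile normalisation the median over the whole table was 0.00, the shares were 13.4% negative and 10.3% positive, and 8 mitoribosomal genes were negative and 0 positive. Median centring gave 13 negative and 0 positive, where 17.2% of all genes were negative and 5.34% positive. Under both scalings the share of mitoribosomal genes with a negative term was close to that of all genes. Relative to all genes, the mitoribosomal median was −0.08 in the deposited values and −0.16 in quantile-normalised ones. Among ribosomal proteins RSM10 had an interaction of −0.55 ± 0.10. The difference made by SMER1 was 0.17 over rapamycin and 0.72 over DMSO. The count of 21 was 9 without DMSO replicate 2, 12 without rapamycin replicate 1, 9 without rapamycin replicate 2, 13 without SMER1 replicate 1, and 8 without SMER1 replicate 2 or either SMER1 plus rapamycin array.

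SMER3 moved mitoribosomal genes in both directions on its lone array, which is assumed to vary like the replicated groups and has no replicate check. Against DMSO 8 of the 69 genes rose and 15 fell, with a median of −0.10, where 21.6% of all genes rose and 14.8% fell, with a median of 0.02 (n = 1 and 3 arrays). Quantile normalisation gave 7 higher and 26 lower, where 18.6% of all genes were higher and 23.5% lower. It also moved the median of all genes to −0.09. Median centring gave 6 higher and 19 lower, where 19.2% of all genes were higher and 18.8% lower. Set against all genes, the mitoribosomal median was at −0.12 in the deposited values and at −0.09 in quantile-normalised ones.

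MRPL24, which encodes bL28m of the large subunit, had a signal of 11.37 with SMER3, against 10.73, 10.73 and 10.65 with DMSO. It rose by 0.66 ± 0.07 (1.58-fold, adjusted p = 0.000435). MRPL28, which encodes mL40, had 11.66 with SMER3, against 11.20, 11.28 and 11.21 with DMSO, and rose by 0.43 ± 0.08. RSM10 rose by 0.46 ± 0.09 and RSM18 by 0.39 ± 0.08. The falls were led by MRPL20, which encodes mL58, a large subunit protein particular to mitochondrial ribosomes. MRPL20 had 10.43 with SMER3, against 10.87, 10.97 and 11.01 with DMSO, and fell by 0.52 ± 0.10 (0.70-fold, adjusted p = 0.00645). MRPS9 (uS9m) fell by 0.49 ± 0.10, MRPL11 (uL10m, which anchors the stalk of the large subunit) by 0.45 ± 0.11 and MRPS18 (uS11m) by 0.44 ± 0.10. RSM25, which encodes mS23, fell by 0.50 ± 0.13 (adjusted p = 0.0219), a call lost without DMSO replicate 2 (difference −0.47, adjusted p = 0.0556). Both subunits were split: 4 genes rose and 8 fell of 40 in the large one, and 3 rose and 6 fell of 27 in the small one. All genes were split too, with 21.6% higher and 14.8% lower.

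SMER3 and SMER1 were used at the same dose and time, and 53 of the 69 genes were lower with SMER3 than with SMER1 while 0 were higher (n = 1 and 2 arrays). Over all genes 26.1% were lower and 20.6% higher. The median difference was −0.53, against −0.03 over all genes. MRPL8 differed most, with 11.21 with SMER3 against 12.21 and 12.24 with SMER1, a difference of −1.02 ± 0.08 (0.49-fold, adjusted p = 0.000125). RSM25 had 9.61 with SMER3, against 10.54 and 10.61 with SMER1, and differed by −0.97 ± 0.14. MRPS18 had 11.33 with SMER3, against 12.37 and 12.15 with SMER1, and differed by −0.93 ± 0.11. MRPS9 (−0.91 ± 0.11), RSM22 (−0.91 ± 0.10), MRP49 (mL61, −0.88 ± 0.08), MRPL44 (mL53, −0.85 ± 0.09) and MRPL9 (uL3m, −0.76 ± 0.08) followed. Among the 16 genes not called, 2 had values above 0, MRPL24 at 0.18 ± 0.07 and MRPL4 (uL29m) at 0.07, named here after their values were seen. The 95% interval for MRPL24 ran from 0.00 to 0.37.

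**Figure D4:**
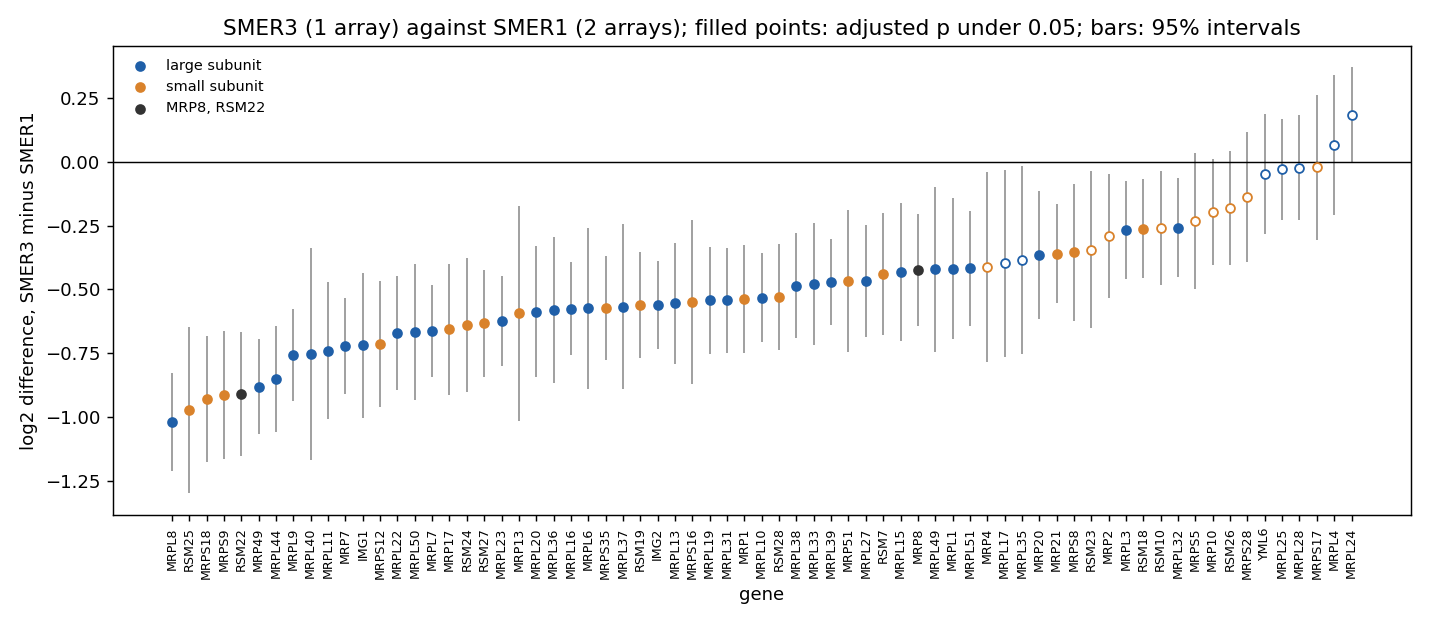
Log2 difference of the lone SMER3 array from the mean of the 2 SMER1 arrays for each of the 69 genes, with 95% intervals from the fit, ordered by size. Filled points had an adjusted p under 0.05, and all 53 of them lie below 0, down to −1.02 at MRPL8.

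SMER2, SMER4 and SMER5 gave no called mitoribosomal gene against DMSO by limma (n = 1 and 3 arrays each), where 0.312% of all genes were called with SMER2, 0% with SMER4 and 0% with SMER5. At an unadjusted p under 0.05 there were 5 mitoribosomal genes with SMER2, 1 with SMER4 and 1 with SMER5. The differences of the 69 genes ran from −0.24 to 0.14 with SMER2, from −0.20 to 0.20 with SMER4 and from −0.25 to 0.19 with SMER5. The 95% interval of a gene had a median half-width of 0.223, and all intervals together spanned −0.49 to 0.49, −0.51 to 0.48 and −0.56 to 0.54 for SMER2, SMER4 and SMER5. A change of the size that most genes showed with SMER1, 0.42 at the median, lay outside the interval of a typical gene. An F test among the 5 SMERs, all at 20 µM, called 56 of the 69 genes, against 58.1% of all genes.

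The subunit genes were also split by whether their proteins have a bacterial homologue or were added in mitochondria. With SMER1 38 of 42 genes with a bacterial homologue and 18 of 25 without one rose, with medians of 0.43 and 0.36. With rapamycin 25 of 42 and 11 of 25 rose while 1 and 2 fell, with medians of 0.25 and 0.17. With SMER3 4 and 3 rose and 7 and 7 fell. The shares of all genes were 36.5% higher and 25% lower with SMER1 and 39.7% higher and 20.4% lower with rapamycin. With SMER3 they were 21.6% higher and 14.8% lower. The medians of all genes were 0.09 with SMER1 and 0.16 with rapamycin, the second close to that of the class without a bacterial homologue. No test of the difference between these classes was run.

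MRP8 was the gene of the name family with the largest rise against DMSO for rapamycin, SMER1, their combination and SMER3, although its protein is not a ribosomal subunit. Its signals were 13.83 and 13.76 with SMER1 plus rapamycin, 13.61 and 13.48 with SMER1, 13.49 and 13.47 with rapamycin and 13.12 with SMER3, against 12.51, 12.40 and 12.42 with DMSO. All 7 treated values lay above all DMSO values. The differences were 1.35 ± 0.07, 1.10 ± 0.07, 1.04 ± 0.07 and 0.68 ± 0.09 in that order, and in the first 3 comparisons MRP8 was the only one of the 69 genes to change at least 2-fold. RSM22 had 11.13 and 11.11 with SMER1, against 10.80, 10.65 and 10.70 with DMSO, and rose by 0.40 ± 0.08 (adjusted p = 0.00286). On the SMER3 array it was 10.21, a fall of 0.51 ± 0.10 (adjusted p = 0.00569). Without these 2 genes the counts were 56 of 67 higher with SMER1, 36 higher and 3 lower with rapamycin, and 7 higher and 14 lower with SMER3.

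A further 10 mitoribosomal proteins carry other names and were measured beside the 69. With SMER1 9 of them rose, with the combination 8 and with rapamycin 5, and 0 fell in these comparisons. Of all genes 36.5%, 39.6% and 39.7% rose and 25%, 31.2% and 20.4% fell in that order. The rise of 5 of 10 with rapamycin was thus close to the share of all genes. MHR1 (mL67, which also acts in recombination of mitochondrial DNA) rose by 0.81 ± 0.07 with the combination, 0.75 ± 0.07 with SMER1 and 0.60 ± 0.07 with rapamycin. PET123 (mS26) rose by 0.71 ± 0.10 with SMER1 and was lower by 1.04 ± 0.13 with SMER3 than with SMER1. EHD3 (mS47, which also has hydrolase activity on 3-hydroxyisobutyryl-CoA) was the 1 of the 10 called with SMER3 against DMSO, with a rise of 0.62 ± 0.08. Of all genes 21.6% rose and 14.8% fell with SMER3.

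The rest of the mitochondrial translation apparatus was read from lists. Over all genes 39.6% rose and 31.2% fell with the combination, 36.5% rose and 25% fell with SMER1, 39.7% rose and 20.4% fell with rapamycin, and 21.6% rose and 14.8% fell with SMER3. Of 14 mitochondrial aminoacyl-tRNA synthetase genes, which charge the organelle's tRNAs, 12 rose with the combination, 12 with SMER1 and 10 with rapamycin, with medians of 0.57, 0.56 and 0.41. MSF1, for phenylalanine, rose by 1.26 ± 0.10 with the combination, 1.16 ± 0.10 with SMER1 and 0.85 ± 0.10 with rapamycin. With SMER3 4 of the 14 rose, MSK1 (for lysine) by 0.70 ± 0.08, and 3 fell. Of 28 translation factors, activators and membrane receptors, 19 rose and 3 fell with the combination, 15 rose and 1 fell with SMER1, and 12 rose and 4 fell with rapamycin, the last close to the shares of all genes. MEF2, a mitochondrial elongation factor G homologue that acts in ribosome recycling, rose by 1.67 ± 0.10, 1.27 ± 0.10 and 1.37 ± 0.10 in those 3 comparisons.

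On the SMER3 array the largest differences in this list were those of AEP3, which stabilises a mitochondrial message for ATP synthase subunits, and PET309, the activator of COX1 translation. AEP3 rose by 2.54 ± 0.12 and PET309 fell by 1.59 ± 0.09. Of 11 assembly and processing genes, 5 rose and 3 fell with the combination, 5 rose and 0 fell with SMER1, 3 rose and 2 fell with rapamycin, and 1 rose and 6 fell with SMER3. In that order 39.6%, 36.5%, 39.7% and 21.6% of all genes rose, and 31.2%, 25%, 20.4% and 14.8% fell. The counts with the combination were thus close to the shares of all genes. MTG1, a GTPase of large subunit assembly, rose by 0.72 ± 0.10 with the combination. AFG3 and YTA12 encode the subunits of the inner membrane protease that matures a mitoribosomal protein. AFG3 rose by 0.64 ± 0.10 with the combination, and YTA12 rose by 0.46 ± 0.07 with rapamycin. GEP3, a GTPase-related factor of small subunit maturation, fell by 0.85 ± 0.13 with SMER3, by 0.93 ± 0.10 with the combination and by 0.47 ± 0.10 with rapamycin. MRH4, a DEAD-box helicase of large subunit assembly, fell by 0.73 ± 0.11 with SMER3, by 0.63 ± 0.08 with the combination and by 0.60 ± 0.08 with rapamycin.

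Nuclear genes of the respiratory chain and ATP synthase, whose partner subunits this ribosome makes, rose in 29 of 33 cases with the combination, 21 with SMER1, 28 with rapamycin and 12 with SMER3. The shares of all genes that rose were 39.6%, 36.5%, 39.7% and 21.6% in that order. The medians of the respiratory genes were 0.55, 0.41, 0.56 and 0.36, against 0.09, 0.09, 0.16 and 0.02 over all genes. With SMER3 the respiratory genes thus had a positive median while the mitoribosomal median was −0.10. CYC1, for cytochrome c, rose by 1.69 ± 0.14 with SMER3 and fell by 0.76 ± 0.11 with SMER1. HAP4, the activating subunit of the Hap complex that induces respiratory genes, had 11.55 with SMER3, against 10.06, 10.25 and 10.44 with DMSO, and rose by 1.30 ± 0.25 (adjusted p = 0.00562). It fell by 0.54 ± 0.20 with rapamycin (adjusted p = 0.0478), where 28 of the 33 respiratory genes rose, and that call was lost without any of 6 arrays, DMSO replicate 2 or 3 and each array with rapamycin (adjusted p = 0.0529 to 0.252). The difference in HAP4 was 0.14 ± 0.20 with the combination and −0.14 ± 0.20 with SMER1, neither called. RPO41, the mitochondrial RNA polymerase, rose by 0.51 ± 0.11 with the combination and by 0.57 ± 0.11 with SMER1. With rapamycin alone RPO41 was not called (−0.13 ± 0.11). It fell by 0.48 ± 0.14 with SMER3, and was lower by 1.05 ± 0.15 there than with SMER1. MTF1, also on the list of genes to be named, rose by 0.26 ± 0.08 with rapamycin. Its differences with the combination (−0.13 ± 0.08) and SMER1 (−0.05 ± 0.08) were not called. SFP1, from the same list, fell by 0.44 ± 0.10 with the combination, 0.29 ± 0.10 with SMER1 and 0.39 ± 0.13 on the lone SMER3 array. The SFP1 calls with SMER1 (adjusted p = 0.0401) and SMER3 lay near the threshold. With rapamycin the SFP1 difference of −0.24 ± 0.10 was not called (adjusted p = 0.0709), though close in size to that with SMER1. PUF3, whose protein binds mitoribosomal messages, had 6.39 and 5.64 with the combination, 6.45 and 5.48 with SMER1 and 6.31 and 5.13 with rapamycin, against 5.14, 6.02 and 5.05 with DMSO. The differences of 0.61 ± 0.48, 0.56 ± 0.48 and 0.32 ± 0.48 were not called (adjusted p = 0.288, 0.346 and 0.598). These signals lay far below the array medians of 10.99 to 11.07 and within the range of the alpha-cell genes, 2.74 to 8.49. The missing calls therefore do not show that the PUF3 message was unchanged.

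Genes of the cytosolic ribosome were read beside those of the mitochondrial one. All 40 ribosome biogenesis genes fell with the combination, with SMER1 and with rapamycin, with medians of −2.70, −1.39 and −1.93. Of 127 cytosolic ribosomal protein genes 85 fell with the combination, 21 with SMER1 and 34 with rapamycin, with medians of −0.40, −0.09 and −0.07. Over all genes 31.2%, 25% and 20.4% fell, so that the share of these genes that fell was below that of all genes with SMER1. With SMER3 12 of the 40 biogenesis genes and 5 of the 127 ribosomal protein genes fell, where 14.8% of all genes did.

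**Figure D5:**
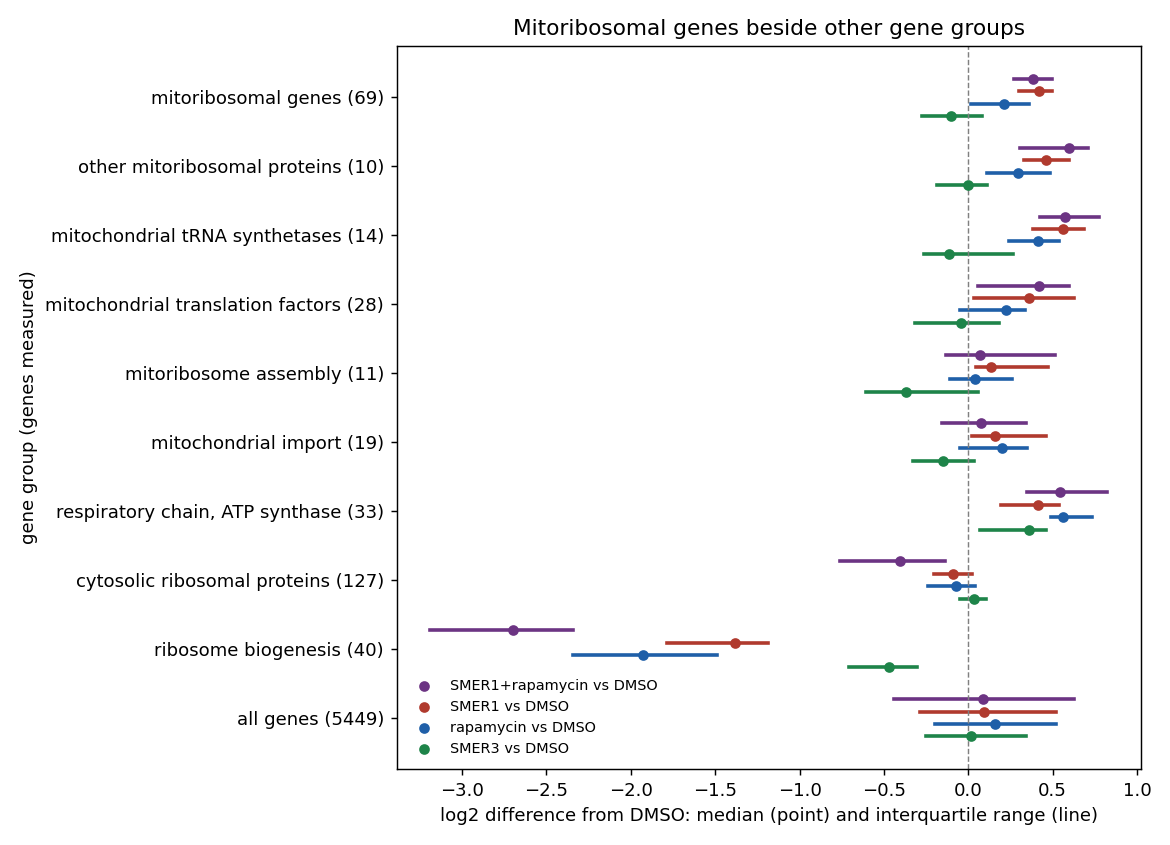
Median (point) and interquartile range (line) of the log2 difference from DMSO in 9 gene groups and in all genes, for the combination, SMER1, rapamycin and SMER3, with the number of genes measured in parentheses. The 69 mitoribosomal genes lie at 0.38, 0.42, 0.21 and −0.10, and the 40 ribosome biogenesis genes lie below 0 in all 4.

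Most of the 69 genes followed a common profile over the arrays. The correlation of a gene with the mean of the other 68 over 13 arrays, given as a description because the arrays are replicates of 8 groups, had a median of 0.874. It was above 0.8 for 48 of the 69 genes, against 19.7% of the 5380 other genes set against the mean of the 69. MRPL9 (0.991), MRP49 (0.988) and MRPL31 (mL60, 0.988) lay closest to the common profile. RSM26 (−0.01), MRP13 (mS44, 0.09), MRP4 (0.10) and YML6 (0.24) lay farthest from it. These genes were picked by the correlation.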

How the data were processed

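The deposited table holds log2 signals of 5716 probe sets on 13 one-colour arrays. Their range, 0 to 14.67, is that of a log2 scale, and array medians lay between 10.99 and 11.07. How the authors summarised, background-corrected and normalised these deposited log2 values is not given in the sources used here. Probe sets were named through the platform's gene table, with 12 symbols updated from the R64 annotation. Of them, 5498 had 1 gene and 218 none. The brightest probe set was kept for the 47 genes with several, which left 5449 genes. Each of the 69 genes had 1 probe set. No genome coordinates or sequences were used. VAR1 was not analysed here.

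A mean per group was fitted to every gene over all 13 arrays and 8 groups with limma 3.58.1 in R 4.3.3, with eBayes moderation (5 residual and 2.36 prior degrees of freedom, and a prior SD of 0.102). Tests were two-sided, and p-values were adjusted over 5449 genes by the Benjamini-Hochberg method. A lone array borrows the spread of the replicated groups. Precision is limited by how few arrays there are. The fit was tested on simulated data. The members, the other gene lists, the comparisons and the rule for naming genes were chosen with earlier results of these data known. The rule named up to 10 called rises and 10 called falls per comparison, genes called against the majority, MRP8 and RSM22, and up to 4 called genes of each other list, with HAP4, PUF3, SFP1, RPO41 and MTF1. Alternatives were quantile normalisation, median centring, leaving out the 25% of genes with the lowest mean, a replicate block, an intensity trend with a robust prior, only the arrays of the groups compared, and leaving out each replicate.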

Additional observations from a re-analysis of the deposited data

Results flagged for a closer look

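SMER1 had an effect in the presence of rapamycin that differed from its effect in its absence, by the test of the interaction, in 21 of the 69 mitoribosomal genes. All 21 terms were negative. Over all genes 21.3% of terms were negative and 4.42% positive. After quantile normalisation 8 mitoribosomal genes were negative and 0 positive, where 13.4% of all genes were negative and 10.3% positive. The share of negative terms was then close to that of all genes. The largest were MRP8 at −0.79 ± 0.10, RSM27 at −0.60 ± 0.10, IMG1 (bL19m of the large subunit) at −0.56 ± 0.13, RSM10 at −0.55 ± 0.10 and RSM19 at −0.54 ± 0.10. The IMG1 call was lost after quantile normalisation (−0.34, adjusted p = 0.131) and without DMSO replicate 2 (−0.52, adjusted p = 0.0505), SMER1 replicate 2 (−0.47, adjusted p = 0.0741), SMER1 plus rapamycin replicate 1 (−0.50, adjusted p = 0.0844) or rapamycin replicate 2 (−0.47, adjusted p = 0.0655).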

How the results depend on the processing

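Of 77 counts of called mitoribosomal genes recomputed under settings other than leaving out single arrays, 66 stayed within 1.5 times and 11 did not. The 66 include the counts for SMER2, SMER4 and SMER5, which were 0 in each such setting. Counts with single arrays left out are not among the 77. Of 252 results for single genes, 183 kept their call in every setting, leaving out single arrays included, 69 lost it in at least 1 and 0 reversed. For SMER1 plus rapamycin against SMER1 (2 called), quantile normalisation gave 4, leaving out the 25% lowest genes 5, the trend with a robust prior 5, and only the arrays compared 0. Fitting only the arrays compared gave 14 for SMER1 against rapamycin, 11 for SMER3 against DMSO (23 called) and 32 for SMER3 against SMER1. The interaction gave 8 after quantile normalisation and 13 after median centring, where 23.7% and 22.6% of all genes were called. Leaving out single arrays gave 10 to 25 for SMER1 plus rapamycin against rapamycin, 0 to 2 against SMER1, 14 to 29 for SMER1 against rapamycin and 8 to 20 for the interaction. With the replicate number as a block, the interaction gave 36 and SMER1 plus rapamycin against SMER1 gave 10, where 43.6% and 33.1% of all genes were called. The block gave 36 for SMER1 plus rapamycin against rapamycin and 39 for SMER1 against rapamycin, where 65.8% and 56.1% of all genes were called. Same-numbered arrays shared deviations with r of 0.43 to 0.598, but DMSO replicate 2 with r of 0.0705 to 0.131. The number was therefore not taken as a pairing in the fit over all groups. Comparisons among the SMER1, rapamycin and combination arrays, where r was 0.436 to 0.598, were left unpaired as well. The cause was not tested for any of these moves. The lone SMER arrays limit what can be detected.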
